A study of Mus musculus with 16 samples.

Results

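MPI-2 cells left uninfected were compared between day 5 and day 1 of the experiment, to see what changed with time in culture when no bacteria were added. The comparison holds 8 of the 16 libraries of the series, 4 uninfected at day 1 and 4 uninfected at day 5, taken by their labels alone. MPI-2 is a wild-type, self-renewing mouse cell line that is described as alveolar-like macrophages and depends on the growth factor GM-CSF. All 8 libraries come from this line and carry no added gene, drug or microbe. The other 8 libraries, exposed to Mycobacterium abscessus for the same times, enter only where the change with time is set beside that of exposed cultures. Each replicate is labelled as a biological replicate of the line, and no label names separate animals, so the p-values measure the spread between cultures of 1 cell line. The stock line was split before confluence, per the labels' growth protocol. Whether the medium was changed between day 1 and day 5, how densely the cells were plated and at which passage each replicate was taken are not given in the sources used here.

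Polyadenylated RNA was sequenced and counted per gene. Total counts in the 8 libraries lay between 53227457 and 79913232. Levels are given as CPM, counts scaled to the size of each library, which are not per gene length, so they compare libraries and not genes. In bulk RNA a change in the number of cells that express a gene and a change in RNA per cell cannot be told apart.

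Several of the genes below belong to the response to low oxygen. In cells with enough oxygen, prolyl hydroxylases encoded by the Egln genes mark the alpha subunits of hypoxia-inducible factor (HIF, encoded by Hif1a and Epas1), and the Vhl protein then directs them to degradation. When oxygen or the hydroxylases' other cofactors run short, the alpha subunits persist, pair with the Arnt protein and bind short motifs near genes of glycolysis, oxygen supply, collagen hydroxylation and mitophagy. The step that controls HIF is therefore mostly protein stability, which RNA counts do not measure. The other large group concerns major histocompatibility complex (MHC) class II, the molecules that present peptides to CD4+ T cells, whose genes are switched on together by the coactivator Ciita.

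The short core motif that HIF binds is shown in the stretch just upstream of 6 genes that rose and that are textbook HIF targets, because these genes carry the clearest change of the comparison. Sequences are RefSeq's for the mouse build GRCm38.p6, which is not the GRCm39 of the counts, and cover the 250 bases before the annotated start, 5′ to 3′ on the gene's own strand. Capitals mark ACGTG or GCGTG on either strand, so that CACGT and CACGC mark the motif on the opposite strand. The windows lie at chr11:54100674-54100923 (plus strand) for P4ha2, chr8:45999851-46000100 (minus) for Ankrd37, chr7:110627407-110627656 (plus) for Adm, chr7:138909507-138909756 (minus) for Bnip3, chr12:54203875-54204124 (minus) for Egln3 and chr7:46845554-46845803 (plus) for Ldha, which has 2 windows in the table, of which the first is shown.
P4ha2: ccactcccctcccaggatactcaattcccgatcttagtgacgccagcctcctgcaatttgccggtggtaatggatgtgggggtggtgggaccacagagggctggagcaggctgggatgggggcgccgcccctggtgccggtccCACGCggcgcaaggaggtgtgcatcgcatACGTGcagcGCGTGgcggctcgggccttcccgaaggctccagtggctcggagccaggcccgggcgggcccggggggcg
Ankrd37: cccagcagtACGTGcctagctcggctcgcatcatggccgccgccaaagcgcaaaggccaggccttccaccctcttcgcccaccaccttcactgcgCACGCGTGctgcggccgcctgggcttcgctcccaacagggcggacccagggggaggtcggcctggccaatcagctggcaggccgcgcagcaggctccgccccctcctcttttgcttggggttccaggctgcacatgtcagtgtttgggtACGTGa
Adm: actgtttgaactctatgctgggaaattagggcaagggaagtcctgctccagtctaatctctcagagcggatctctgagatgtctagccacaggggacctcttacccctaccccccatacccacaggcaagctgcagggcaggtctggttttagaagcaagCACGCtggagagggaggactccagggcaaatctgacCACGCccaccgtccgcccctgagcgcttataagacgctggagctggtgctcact
Bnip3: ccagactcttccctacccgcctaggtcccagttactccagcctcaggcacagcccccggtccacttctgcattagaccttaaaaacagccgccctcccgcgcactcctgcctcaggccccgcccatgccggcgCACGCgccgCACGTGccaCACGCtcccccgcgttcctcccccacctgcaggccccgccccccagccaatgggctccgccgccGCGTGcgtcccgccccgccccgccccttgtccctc
Egln3: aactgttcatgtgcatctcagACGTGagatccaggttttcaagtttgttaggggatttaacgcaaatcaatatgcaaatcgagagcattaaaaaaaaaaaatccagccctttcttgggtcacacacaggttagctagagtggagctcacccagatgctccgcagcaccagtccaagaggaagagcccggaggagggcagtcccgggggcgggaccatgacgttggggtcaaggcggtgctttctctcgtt
Ldha: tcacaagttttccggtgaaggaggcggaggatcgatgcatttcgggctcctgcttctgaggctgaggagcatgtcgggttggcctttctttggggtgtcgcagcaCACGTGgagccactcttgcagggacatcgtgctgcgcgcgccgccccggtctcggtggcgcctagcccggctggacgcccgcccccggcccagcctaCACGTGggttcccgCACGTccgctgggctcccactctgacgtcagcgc
The P4ha2 window holds 3 motifs, Ankrd37 4, Adm 2, Bnip3 5, Egln3 1 and Ldha 5. Matches on each strand were counted, so each CACGTG, which reads the same on both strands, counts as 2 motifs in Bnip3 and Ldha. CACGTG is a motif that other factors also bind. In Ankrd37 the 2 matches within CACGCGTG share bases. At least 1 motif stands in 38.6% of all 32851 windows that RefSeq gives, and in 53.6% of the 13369 windows of genes tested here. Among windows of HIF target genes 26 of 32 (81.3%) hold it, and among those of glycolysis genes 25 of 33 (75.8%). CACGTG occurs in 6.02% of all windows. A match says only that the letters are there.

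Of 15777 genes tested, 3386 (21.5%) were called higher and 3038 (19.3%) lower at day 5, at an adjusted p under 0.05 in edgeR's quasi-likelihood test. The counts given for lists below are to be read beside these shares. Some genes are members of several lists and are counted in each. Changes of at least 2-fold were mostly increases, 632 genes (4.01%) higher against 65 (0.412%) lower. The 4 libraries of a day did not overlap with those of the other day for 6030 genes (38.2%). Replicates were close, with a common biological coefficient of variation of 0.0816, and the days lay apart on the leading principal component, which held 53.1% of the variance. Mitochondrially encoded genes took 1.86% to 2.10% of counts at day 1 and 1.46% to 1.71% at day 5. Short transcripts sat higher at day 5, with a median log2 fold change of 0.158 for genes of up to 500 bases and -0.0928 for those over 6000 bases, against 0.0248 over all genes. What this gradient contributes to any one gene was not tested. Counts given beside a list for all 16 libraries in the fit come from a fit that estimates the spread between replicates from the exposed libraries too. The genes that pass the filter and the scaling also differ there, and the cause of the differences in counts was not tested.

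**Figure D1:**
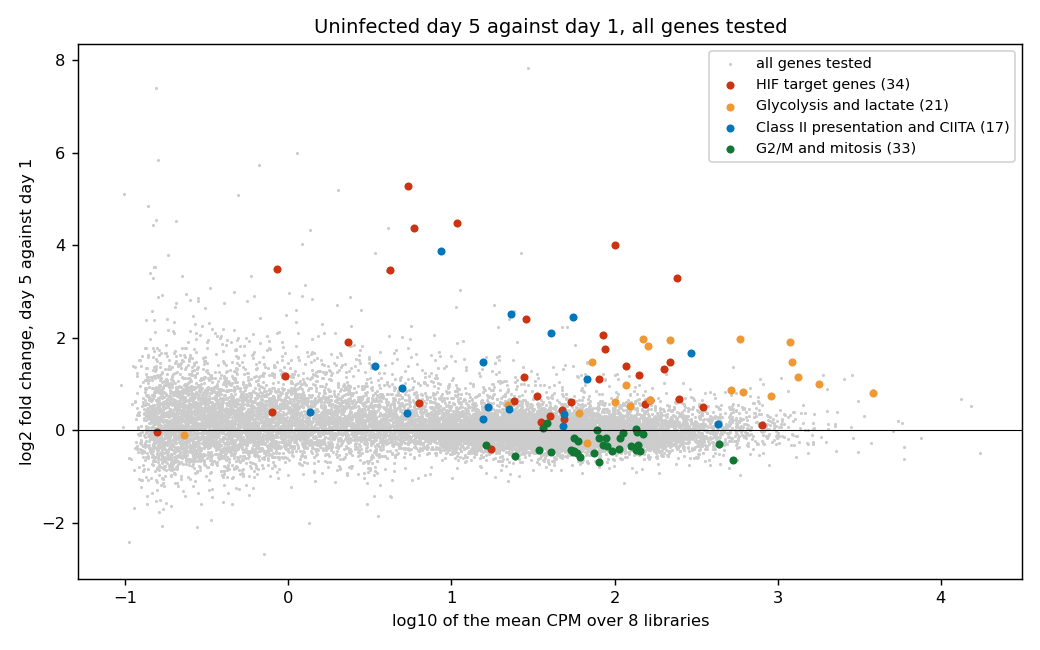
Log2 fold change from day 1 to day 5 against the log10 of the mean CPM over the 8 uninfected libraries, 1 point per tested gene, with HIF target genes (34), glycolysis genes (21), class II genes (17) and mitotic genes (33) in colour. Most points above 2-fold lie upward, HIF target, glycolysis and class II genes are among them, and the mitotic genes lie close to or just under 0.

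The largest rise of a gene with at least 5 CPM was that of Arg1, arginase, which turns arginine into ornithine and urea. Its level was 0.153, 0.427, 0.221 and 0.203 CPM in day 1 replicates 1 to 4 and 35.5, 30.9, 69.6 and 100.1 CPM in the same replicates at day 5. The gene was close to absent in each day 1 library and present in each day 5 library, more in replicates 3 and 4 than in 1 and 2. Its log2 fold change was 7.83 ± 0.69 (SE, n = 4 and 4; adjusted p = 0.000179). Fitted on replicates 1 and 2 alone the value was 6.82, and on replicates 3 and 4 alone 8.61.

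P4ha2, a subunit of the enzyme that hydroxylates proline in collagen, followed with 0.204, 0.414, 0.239 and 0.184 CPM at day 1 and 7.97, 8.58, 9.44 and 16.2 CPM at day 5. All day 5 libraries stood well above all day 1 libraries, and replicate 4 was the highest. The log2 fold change was 5.28 ± 0.33 (adjusted p = 1.47e-06).

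Ankrd37, an ankyrin-repeat protein whose gene is a known HIF target, rose from 0.776, 1.07, 0.995 and 0.829 CPM to 19.0, 19.4, 19.3 and 24.6 CPM. The libraries of each day lay close together, so the log2 fold change of 4.48 ± 0.12 had a small error (adjusted p = 9.80e-14). Adm, which encodes the vasodilator peptide adrenomedullin, had 0.649, 0.527, 0.387 and 0.571 CPM at day 1 and 9.33, 8.66, 12.7 and 14.0 CPM at day 5. Its libraries did not overlap, and the log2 fold change was 4.37 ± 0.19 (adjusted p = 6.37e-10). Adm2, a related peptide, rose by 3.03 ± 0.11 (range 2.18 to 2.88 CPM at day 1 and 17.4 to 23.2 CPM at day 5).

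Bnip3, a mitochondrial protein that marks mitochondria for removal by autophagy, was at 11.6, 13.8, 11.7 and 10.2 CPM at day 1 and at 126, 125, 189 and 323 CPM at day 5. The day 5 libraries again split, with replicates 3 and 4 above 1 and 2. The log2 fold change was 4.01 ± 0.38 over all replicates (adjusted p = 0.000277), 3.29 in replicates 1 and 2 and 4.53 in replicates 3 and 4. Stc2, a secreted stanniocalcin, rose (range 0.623 to 0.766 CPM at day 1 and 6.51 to 9.40 CPM at day 5), by 3.46 ± 0.15. Car12, a membrane carbonic anhydrase, and Ndrg1, a stress-response gene, rose by 3.50 and 2.41 on the log2 scale, and both were chosen after their values were seen.

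**Figure D2:**
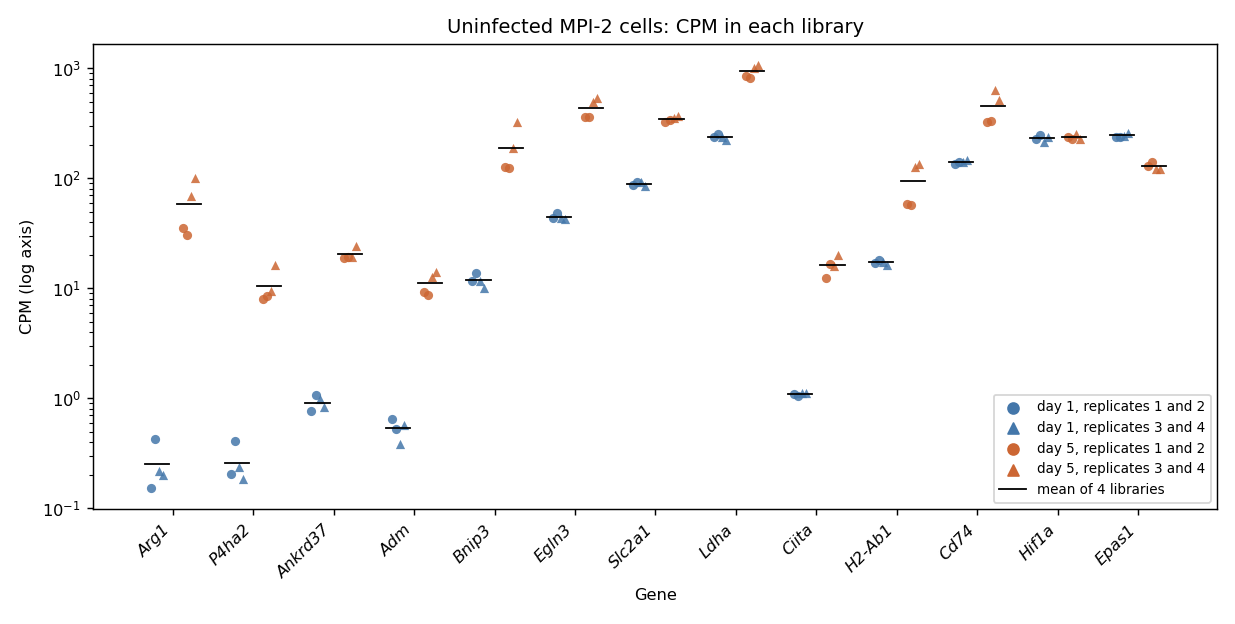
CPM on a log axis of 13 genes in each uninfected library, blue for day 1 and orange for day 5, circles for replicates 1 and 2, triangles for replicates 3 and 4, with a line at the mean of 4 libraries. The days do not overlap for any gene drawn except Hif1a, and Epas1 is the 1 gene lower at day 5. The triangles stand above the circles at day 5 for Arg1, P4ha2, Adm, Bnip3, Egln3, Slc2a1, Ldha, H2-Ab1 and Cd74.

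Within the oxygen-sensing machinery 2 of the prolyl hydroxylase genes rose, 1 alpha subunit fell and the other was not called. Egln3 had 43.8, 48.4, 43.7 and 42.9 CPM at day 1 and 358, 358, 494 and 534 CPM at day 5, a log2 fold change of 3.29 ± 0.14 (adjusted p = 9.98e-08). Egln1 rose by 1.38 ± 0.07 (range 59.8 to 70.4 CPM at day 1 and 149 to 185 CPM at day 5), and both hydroxylase genes are themselves known HIF targets. Vhl rose by 0.41 ± 0.05.

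Epas1, 1 of the alpha subunits, fell from 240.4, 240.4, 245 and 257 CPM to 131, 140.5, 122 and 122 CPM, by 0.93 ± 0.06 on the log2 scale (adjusted p = 2.37e-09). Every day 5 library lay below every day 1 library. The transcript of the other alpha subunit, Hif1a, was at 227, 249.9, 213 and 236 CPM and 240.1, 229.9, 253 and 227 CPM. Its libraries overlapped, and the log2 fold change was 0.04 ± 0.06 (adjusted p = 0.643), with the sign turning in replicates 1 and 2 alone (-0.03) and without day 5 replicate 3 (-0.01) or day 1 replicate 3. For Arnt the value was -0.09 ± 0.06 (adjusted p = 0.233). Hif1a and Arnt were chosen after their values were seen. Of 9 listed genes of this machinery, 8 were tested, 3 were called higher (Egln1, Egln3 and Vhl) and 2 lower (Epas1 and Hif1an, the asparaginyl hydroxylase of HIF).

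Of 35 HIF target genes listed, 34 were tested, 30 were called higher and 1 lower, with a median log2 fold change of 1.12 against 0.0248 over all genes tested. This list holds Adm and P4ha2 and was written with earlier results known, so its count is a description. Mif, a secreted cytokine, rose by 1.76 ± 0.07, and P4ha1, the other widely used collagen prolyl hydroxylase subunit, by 1.18 ± 0.06. Vegfa, the vascular growth factor, had 110.4 to 118 CPM at day 1 and 245 to 330.0 CPM at day 5 (1.32 ± 0.08; chosen after its values were seen). Pfkfb3, which makes an activator of phosphofructokinase, was the 1 member called lower (-0.40). The remaining called members rose by 0.18 (Cited2, a transcriptional coregulator) to 2.06 (Fam162a, a mitochondrial protein). Bhlhe40, a transcriptional repressor, Loxl2, a lysyl oxidase, and Car9, a carbonic anhydrase, were not called (0.10, 0.38 and -0.03), and Lox had 0 counts in all 8 libraries.

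Glycolysis genes rose along the whole pathway, with a called member at each step from hexokinase to lactate dehydrogenase. Of 21 tested members 19 were called higher and 1 lower, with a median of 0.88. Slc2a1, the main glucose transporter, was at 86.3, 93.5, 92.8 and 84.6 CPM at day 1 and 324, 340.0, 354 and 367 CPM at day 5, a log2 fold change of 1.96 ± 0.06 (adjusted p = 3.04e-13). Pfkl, a phosphofructokinase subunit, rose by 1.97 ± 0.06 (range 57.9 to 65.4 CPM at day 1 and 222 to 253 CPM at day 5). Tpi1, triosephosphate isomerase, rose by 1.48 ± 0.06.

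Ldha, which turns pyruvate into lactate, had 236, 253, 239.7 and 225 CPM at day 1 and 851, 821, 1014 and 1071 CPM at day 5. The libraries of the days were far apart, and the log2 fold change was 1.98 ± 0.08 (adjusted p = 3.24e-11). Pdk1, a kinase that keeps pyruvate out of mitochondria, rose by 1.82 ± 0.08, and Pgk1, phosphoglycerate kinase, by 1.90 ± 0.14. These last 2 genes were chosen after their values were seen. Slc16a1, a carrier of lactate across the cell membrane, was the 1 member called lower, and Eno2, an enolase, was not called. Some glycolysis genes, such as Gapdh, Aldoa and Eno1, have processed pseudogenes or close copies, and how shared reads were assigned is not stated.

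**Figure D3:**
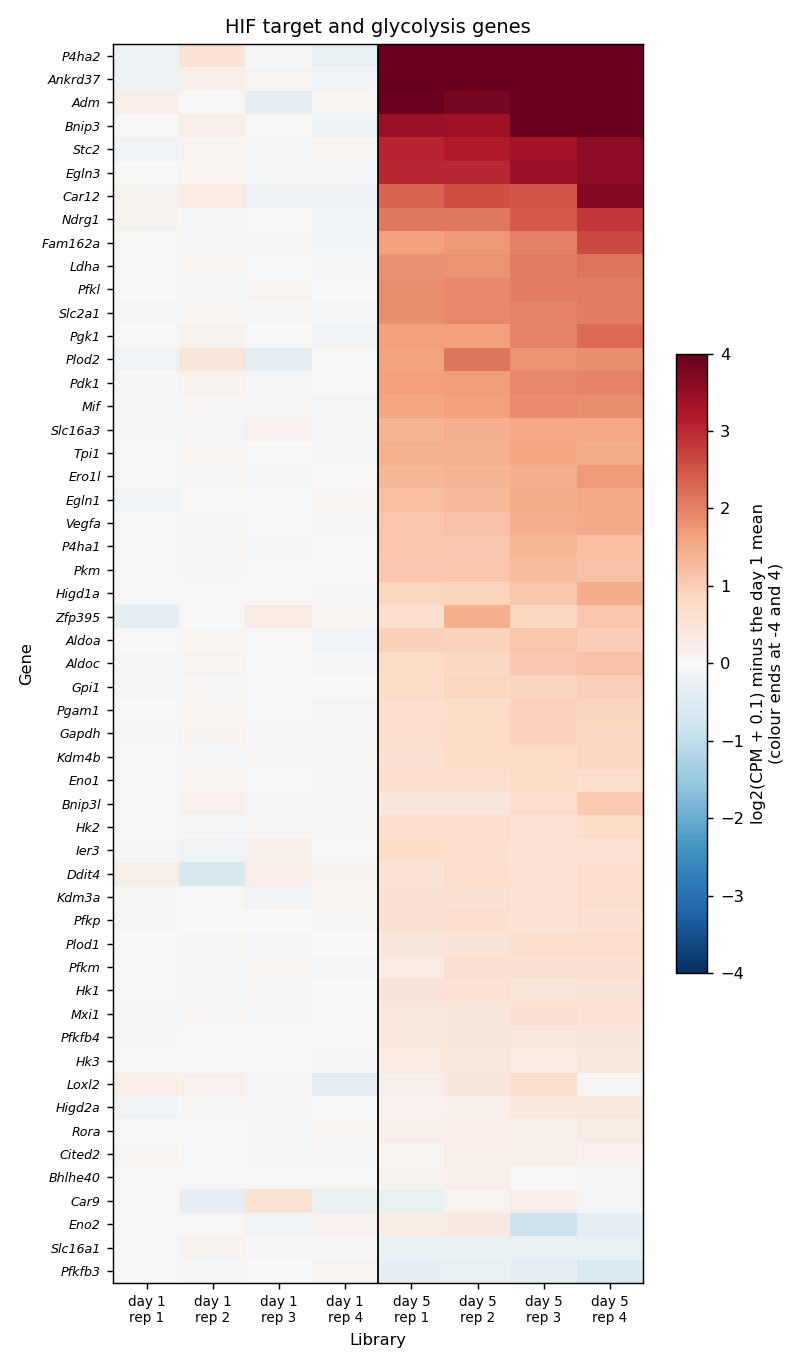
Change of 53 HIF target and glycolysis genes in each uninfected library, as log2(CPM + 0.1) minus the gene's day 1 mean, with libraries in columns and colour ending at -4 and 4. Day 1 columns are pale, and 49 of the 53 genes have a day 5 mean above the day 1 mean, most strongly in the upper rows and in replicates 3 and 4.

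Collagen and matrix genes moved less as a group. Of 23 tested members 11 were called higher and 1 lower, with a median of 0.33 (6 higher with all 16 libraries in the fit). The lower member was Crtap, a partner of collagen prolyl hydroxylation. Those with the smallest p, P4ha1, Plod2, Plod1 and P4ha2, belong to enzymes that modify collagen and are also counted among the HIF target genes. Plod2, a lysyl hydroxylase, rose by 1.91 ± 0.18 (range 0.718 to 1.36 CPM at day 1 and 3.06 to 4.46 CPM at day 5), and Plod1 by 0.56 ± 0.06.

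Genes on both branches of arginine use changed. Slc7a2, an arginine importer, had 530.4, 549, 523 and 574 CPM at day 1 and 1024, 1073, 1048 and 1190.2 CPM at day 5, a log2 fold change of 0.99 ± 0.06 (adjusted p = 2.02e-09). Nos2, the inducible enzyme that makes nitric oxide from arginine, had 0 counts in each day 1 library and 18, 14, 20 and 33 counts at day 5, at least 26.2-fold higher than a floor of 3 counts over the group. Even at day 5 this is a trace, and the call is lost with all 16 libraries in the fit. Ass1, which rebuilds arginine from citrulline, fell by 0.47 ± 0.06. Of 16 tested members of the list 8 were called higher and 4 lower, with a median of 0.28 (2 lower with all 16 libraries in the fit).

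Arg1 is also a marker of alternative activation, the state induced by interleukin-4 signalling. Other members of that list moved far less. Il4ra, the receptor chain, rose by 0.52 ± 0.05, Clec10a, a lectin, by 0.55 ± 0.07, and Ear2, a ribonuclease with close relatives, by 0.76 ± 0.09. Chil3, a chitinase-like protein, was at 9673 to 11590.2 CPM and 12505 to 20749 CPM (0.67 ± 0.18), and the mannose receptor Mrc1 fell (range 466 to 510.2 CPM at day 1 and 302 to 438 CPM at day 5), by 0.35 ± 0.10. Both were chosen after their values were seen. Of 18 tested members 9 were called higher and 2 lower (Mrc1 and Clec7a), with a median of 0.28, and none was lower with all 16 libraries in the fit.

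Class II genes rose together with their coactivator. Ciita was at 1.11, 1.05, 1.12 and 1.12 CPM at day 1 and 12.3, 16.7, 15.9 and 20.1 CPM at day 5. Its day 1 libraries agree closely and none reaches a day 5 library, with a log2 fold change of 3.88 ± 0.14 (adjusted p = 1.13e-11). The list had 14 of 17 tested members called higher and none lower, with a median of 0.91.

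Of the peptide-binding chains, H2-Ab1 had 17.2, 18.1, 17.3 and 16.3 CPM at day 1 and 58.3, 57.4, 126 and 135 CPM at day 5. H2-Eb1 went from 5.92, 6.43, 8.23 and 7.14 CPM to 25.1, 26.4, 56.9 and 49.9 CPM. In both genes day 5 replicates 3 and 4 lay above replicates 1 and 2, and all 4 lay above day 1. The log2 fold change of H2-Ab1 was 2.45 ± 0.35 (adjusted p = 0.00177), that of H2-Eb1 2.52 ± 0.33 (adjusted p = 0.00105) and that of H2-Aa 2.10 ± 0.35. Cd74, the invariant chain that guides class II molecules, had 135, 142, 142 and 147 CPM and 323, 334, 631 and 517 CPM (1.67 ± 0.23; adjusted p = 0.000826). These 4 genes were chosen after their values were seen. In replicates 1 and 2 alone the log2 fold change of H2-Ab1 was 1.71, and in replicates 3 and 4 alone 2.94.

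The chaperones that load peptides rose by less. H2-DMa rose by 1.47 ± 0.11 (range 7.18 to 9.59 CPM at day 1 and 18.9 to 26.4 CPM at day 5), H2-DMb2 by 1.40 ± 0.11 and H2-Oa, which holds the loading step back, by 0.91 ± 0.10. Of class I presentation genes 7 of 17 tested were higher and 3 lower, with a median of 0.13 (3 higher and none lower with all 16 libraries in the fit). H2-K1, a class I heavy chain, had a log2 fold change of 0.48 ± 0.07, H2-M3, a nonclassical one, of 0.65 ± 0.10 and Psmb9, an immunoproteasome subunit, of 0.57 ± 0.11. Erap1, which trims peptides, fell by 0.36 ± 0.06. Dendritic cells also express class II genes at high level. Of 12 other dendritic cell markers 1 was at 0 in all 8 libraries and 6 averaged under 0.1 CPM, while Zbtb46, Clec9a and Batf3, markers of conventional dendritic cells, averaged 1 CPM or more. Clec9a, the highest, had 10.5 to 11.3 CPM at day 1 and 8.09 to 10.3 CPM at day 5. None of the 5 tested was called, and the list had a summed level of 19.2 to 21.1 CPM at day 1 and 17.6 to 21.1 CPM at day 5. The part of such cells in the class II rise was not tested.

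Many interferon-stimulated genes also rose. Of 39 tested members 24 were called higher and none lower, with a median of 0.68. Zbp1, a nucleic acid sensor, had 14.5, 14.2, 14.0 and 13.3 CPM at day 1 and 27.0, 28.4, 31.1 and 29.7 CPM at day 5, a log2 fold change of 1.05 ± 0.06 (adjusted p = 1.99e-09). Oas2, which makes the second messenger that activates RNase L, rose (range 1.31 to 2.04 CPM at day 1 and 5.28 to 8.01 CPM at day 5), by 2.03 ± 0.16. Ifi27l2a rose by 1.37 ± 0.10 and Dhx58, a regulator of RNA sensing, by 0.94 ± 0.09. The remaining called members rose by 0.29 (Igtp, an interferon-induced GTPase) to 2.10 (Rtp4). Bst2, which tethers viruses to the cell surface, was not called (0.01). Over the alternative settings the count of higher members lay between 17 and 26.

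Of 23 tested cytokine and chemokine genes 11 were called higher and 1, Ccl3, lower, with a median of 0.35 (6 higher and none lower with all 16 libraries in the fit). Lif, a cytokine of the interleukin-6 family, had 63.3, 66.0, 69.9 and 65.4 CPM at day 1 and 145, 146, 132 and 148 CPM at day 5, a log2 fold change of 1.11 ± 0.06 (adjusted p = 1.36e-10). Its relative Osm rose by 1.35 ± 0.15, and the chemokines Ccl2 and Ccl5 by 1.54 ± 0.20 and 1.83 ± 0.28, all 3 from low levels (1.15 to 1.55, 2.15 to 2.49 and 0.184 to 0.318 CPM at day 1). Tnf had a log2 fold change of 0.13 ± 0.07 (adjusted p = 0.16) and Il6 of 0.48 ± 0.33 (adjusted p = 0.267), so neither was called. Both were chosen after their values were seen.

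Genes that NF-kB induces, many of which feed back on it, had 5 of 22 tested members higher, 8 lower and a median of -0.09 (3 higher and 5 lower with all 16 libraries in the fit). The shares over the 8 libraries, 22.7% and 36.4%, stand against 21.5% and 19.3% of all genes tested. Sod2, mitochondrial superoxide dismutase, fell by 0.54 ± 0.05, Tnip1, an inhibitor of the pathway, by 0.42 ± 0.05 and Rel, a subunit of the factor, by 0.37 ± 0.06. Ier3, an early response gene that is also a HIF target, rose by 0.64 ± 0.07. Of pattern receptors, 3 of 23 tested were higher and 5 lower (3 lower without day 1 replicate 1, day 1 replicate 3 or day 5 replicate 2, and with all 16 libraries in the fit), or 13% and 21.7%, against 21.5% and 19.3% of all genes tested. Nlrp3, the inflammasome sensor, rose by 0.85 ± 0.05, Cd14, the lipopolysaccharide coreceptor, by 1.13 ± 0.13, and Tlr7 and the lectin Clec4d fell by 0.62 ± 0.07 and 0.68 ± 0.07.

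Many proliferation genes fell by small amounts. Among 35 listed genes for entry into S phase and DNA replication 26 were called lower and 1, the cyclin gene Ccne2, higher, with a median of -0.27, and among 33 for mitosis 25 were called lower and none higher, with a median of -0.34. Mki67, the proliferation antigen, had 664, 610.1, 616 and 715 CPM at day 1 and 486, 492, 366 and 331 CPM at day 5, with the lowest values in day 5 replicates 3 and 4 (log2 fold change -0.64 ± 0.12; adjusted p = 0.00228; chosen after its values were seen). Pola1, the catalytic subunit of DNA polymerase alpha, fell by 0.68 ± 0.07 (range 102 to 116 CPM at day 1 and 59.8 to 75.2 CPM at day 5). The helicase subunits Mcm2 and Mcm6 fell by 0.57 ± 0.06 and 0.50 ± 0.06, and the chromosome motor Kif4 by 0.69 ± 0.07. With all 16 libraries in the fit 4 replication and 3 mitosis members were called lower, while the medians were -0.28 and -0.35.

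Since the study is about senescence, inhibitors of cyclin-dependent kinases are of interest beside these. Cdkn1a, the inhibitor that p53 induces, was at 276, 282, 283 and 279.8 CPM at day 1 and 310.2, 316, 311 and 286 CPM at day 5. Its libraries did not overlap, and the log2 fold change of 0.13 ± 0.05 was not called (adjusted p = 0.0595), though it was without day 5 replicate 4 (0.15), in replicates 1 and 2 alone (0.16) and with a filter of 1 CPM in 4 libraries (0.14). Cdkn2a, which encodes the inhibitor Ink4a and the protein Arf, had 8.11 to 11.9 CPM and 10.0 to 13.4 CPM (0.25 ± 0.11; adjusted p = 0.0854), not called over all replicates. It was called in replicates 1 and 2 alone (0.50), without day 1 replicate 3 or day 5 replicate 4 (0.33 each) and with no filter beyond 1 read (0.24), and its sign turned in replicates 3 and 4 alone (-0.02). Both were chosen after their values were seen. Cdkn2b, the neighbouring inhibitor, was called higher (0.80 ± 0.11).

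Ccnd1, cyclin D1, rose by 1.41 ± 0.10, while Gdf15, a stress cytokine, fell by 0.57 ± 0.06. The senescence list had 7 of 21 tested members higher and 6 lower, with a median of 0.07 (4 and 3 with all 16 libraries in the fit). Targets of p53 were as mixed, with 7 of 27 higher and 9 lower (5 lower with all 16 libraries in the fit). The shares higher and lower were 33.3% and 28.6% in the senescence list and 25.9% and 33.3% among p53 targets. Over all genes tested they were 21.5% and 19.3%. Btg2, an antiproliferative gene, rose by 1.39 ± 0.08, Plk2 by 0.66 ± 0.06 and Plk3 by 0.39 ± 0.06, and the nuclease gene Aen fell by 0.41 ± 0.06.

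The NRF2 and glutathione list had 3 of 28 members higher (Gstp1, Gpx1 and Blvrb) and 11 lower, with a median of -0.09. Txnrd1, thioredoxin reductase, had 353, 355, 361 and 373 CPM at day 1 and 226, 224, 208 and 201 CPM at day 5, a fall of 0.75 ± 0.06 on the log2 scale (adjusted p = 2.54e-08). Slc7a11, the cystine importer, fell by 0.94 ± 0.12 and Osgin1 by 0.82 ± 0.08. The ferritin chains Ftl1 and Fth1, which have many pseudogenes, fell by 0.63 ± 0.06 and 0.50 ± 0.06.

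Of 19 tested genes of metal handling 2 were higher and 10 lower, with a median of -0.22. The lower members include Ftl1 and Fth1, which are also counted in the NRF2 and glutathione list. The metallothioneins Mt1 and Mt2 were the higher members (Mt2 0.38 ± 0.06), and the metal transporter Slc11a1 of phagosomes fell by 0.44 ± 0.07. Heat shock genes had none of 18 tested members higher and 7 lower (4 with all 16 libraries in the fit), with a median of -0.14, led by the chaperones Hsph1 (-0.69 ± 0.06) and Hspd1 (-0.59 ± 0.07). The unfolded protein response had 4 of 24 higher and 6 lower, with a median of -0.01, leaving out 1 library gave 2 to 7 higher, and the fit of all 16 libraries gave 2 higher and 2 lower. The shares over the 8 libraries, 16.7% and 25.0%, stand against 21.5% and 19.3% of all genes tested. For the ATF4 and amino acid response the counts were 10 of 31 higher and 4 lower, with a median of 0.13 (4 and 1 with all 16 libraries in the fit). Trib3, a pseudokinase, rose by 0.64 ± 0.07 and Gpt2, an alanine aminotransferase, by 0.61 ± 0.06, while Ddit3, encoding CHOP, fell by 0.40 ± 0.06.

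Of 32 tested genes of cholesterol and fatty acid synthesis 17 were called higher and 3 lower, with a median of 0.18 (10 and none with all 16 libraries in the fit). Scd1, a stearoyl-CoA desaturase, had 295, 307, 279 and 313 CPM at day 1 and 731, 765, 824 and 749.6 CPM at day 5, a log2 fold change of 1.36 ± 0.06 (adjusted p = 3.09e-11). Its close relative Scd2 rose by 1.11 ± 0.06, Acly, which supplies cytosolic acetyl-CoA, by 1.10 ± 0.06 and the transcription factor gene Srebf1 by 0.50 ± 0.06. Genes of lipid handling were split, with 12 of 30 higher and 10 lower (5 higher with all 16 libraries in the fit). Plin4, a lipid droplet protein, and Abca1, a cholesterol exporter, rose by 0.85 ± 0.08 and 0.49 ± 0.06, while Lipa, the lysosomal lipase, and Olr1, a receptor for oxidised lipoprotein, fell by 0.74 ± 0.06 and 0.64 ± 0.06.

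In the lysosome list 6 of 36 members were higher and 15 lower, with a median of -0.11, and the count of higher members was 3, 3 and 2 without day 1 replicates 1, 3 and 4 in turn. None was higher and 7 were lower with all 16 libraries in the fit. Lgmn, a cysteine protease, fell by 0.71 ± 0.07, Npc1, the cholesterol transporter, by 0.57 ± 0.06 and Ctsb, cathepsin B, by 0.49 ± 0.06. Autophagy had 4 of 27 higher and 9 lower. The shares higher and lower were 16.7% and 41.7% in the lysosome list and 14.8% and 33.3% for autophagy, against 21.5% and 19.3% of all genes tested. Fnip2, a partner of folliculin, fell by 1.13 ± 0.07, and Wipi1 and Map1lc3a, both part of the autophagosome machinery, rose by 0.68 ± 0.06 and 0.73 ± 0.07.

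All 13 protein-coding genes of the mitochondrial genome had a negative log2 fold change, with 5 called lower, none higher and a median of -0.45 (9 lower without day 5 replicate 2, 2 lower with all 16 libraries in the fit). The share of counts that they took was 1.99% ± 0.107 at day 1 and 1.58% ± 0.119 at day 5 (SD, n = 4 and 4), with no overlap (exact permutation test, two-sided p = 0.0286, the smallest that 4 against 4 allows). mt-Cytb fell by 0.48 ± 0.06. Nuclear genes of oxidative phosphorylation had 12 of 38 members higher and 3 lower (6 lower without day 5 replicate 3, 7 higher and 1 lower with all 16 libraries in the fit), with a median of 0.11, and those of the TCA cycle 1 of 22 higher and 5 lower (2 lower with all 16 libraries in the fit), with a median of -0.04. For the TCA cycle the shares, 4.55% higher and 22.7% lower, stand against 21.5% and 19.3% of all genes tested. In replicates 1 and 2 alone the nuclear genes gave 8 higher and 8 lower and the TCA cycle 9 lower. With the length trend removed 6 nuclear genes were higher and 5 lower, and scaled by library totals alone 8 were higher and 6 lower. Cytosolic ribosomal protein genes had 23 of 36 higher and none lower, with a median of 0.22. These are short transcripts, which sat higher at day 5 in general, and 15 and 11 members were called higher without day 1 replicates 1 and 4 in turn. With the length trend removed 17 were called higher and 3 lower, and with all 16 libraries in the fit 6 were called higher.

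Clock genes moved in both directions. Nr1d1 and Nr1d2, the REV-ERB repressors, fell by 0.71 ± 0.06 and 0.86 ± 0.07, Tef by 0.46 ± 0.05, and Nfil3, which binds the same sites as Tef, rose by 0.73 ± 0.07. Of 18 tested members 8 were higher and 7 lower (4 higher with all 16 libraries in the fit). The hour of collection is not given in the sources used here. The list of the GM-CSF and STAT5 axis, which holds receptor chains, signalling proteins and targets, had 10 of 23 tested members higher and 3 lower, with a median of 0.14. Cish and Socs1, both feedback inhibitors of cytokine receptors, rose by 0.62 ± 0.06 and 1.08 ± 0.11, and Mcl1, a survival protein, and Myc by 0.69 ± 0.06 and 0.62 ± 0.06.

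**Figure D4:**
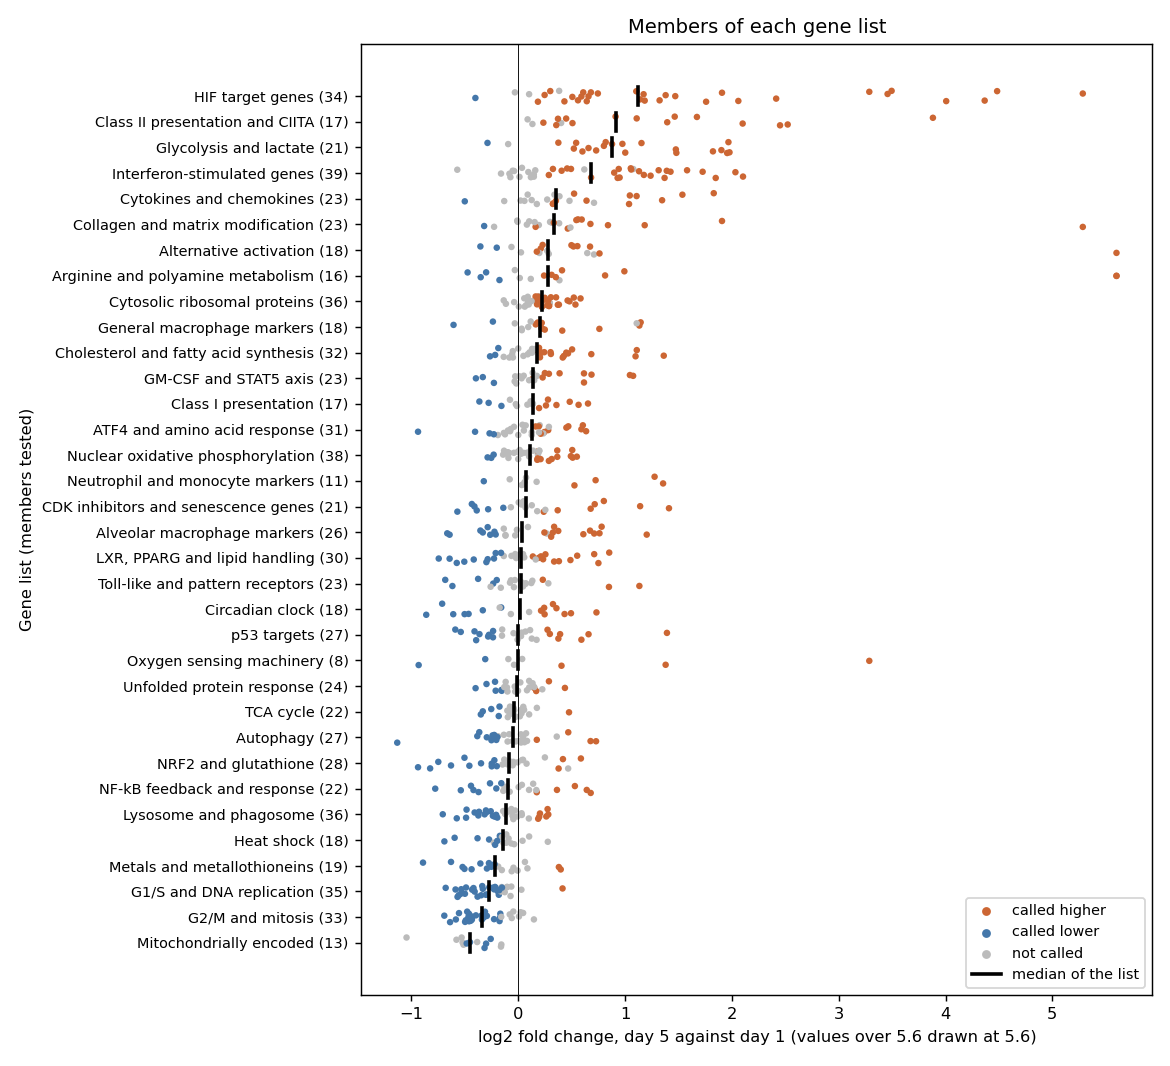
Log2 fold change of the tested members of each gene list with at least 8 tested members, 1 point per gene, orange for called higher, blue for called lower and grey for not called, with a black line at the list's median and values over 5.6 drawn at 5.6. HIF target genes lie furthest right with a median of 1.12, and mitochondrially encoded genes furthest left with a median of -0.45.

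The cells kept macrophage transcripts at both days. All 26 listed alveolar macrophage markers passed the filter on low counts, of which 11 were called higher and 8 lower (5 lower with all 16 libraries in the fit), with a median of 0.04. Pparg, the transcription factor that GM-CSF induces in alveolar macrophages, had 399, 416, 374 and 406 CPM at day 1 and 399, 382, 409 and 374 CPM at day 5 (-0.03 ± 0.06; adjusted p = 0.724). The scavenger receptor Marco was at 1775 to 2365 CPM and 1888 to 2696 CPM, Fabp4, a fatty acid carrier, at 973 to 1038 CPM and 812 to 947 CPM, and the integrin Itgax at 233 to 241 CPM and 164 to 234 CPM. Marco was not called over all replicates, but was called higher in replicates 1 and 2 alone (0.40) and called lower in replicates 3 and 4 alone (-0.27). For Itgax, the fall lost its call without any 1 of the day 1 libraries or day 5 replicate 3. Siglecf, the surface lectin used to sort alveolar macrophages, was low, at 4.36 to 5.42 CPM and 6.77 to 7.64 CPM. These 5 genes were chosen after their values were seen. Krt79, a keratin typical of alveolar macrophages, rose by 1.20 ± 0.07, and Tgfbr2, a receptor of TGF-beta, fell by 0.66 ± 0.06. Of 21 listed general macrophage markers, the 3 genes of complement C1q did not pass the filter on low counts. Of the 18 tested 10 were higher and 2 lower (3 higher and 1 lower with all 16 libraries in the fit). Lyz2, lysozyme, rose by 0.41 ± 0.08, a call that was lost in that fit, and Mertk, a receptor for dead cells, fell by 0.60 ± 0.07.

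Markers of lymphocytes, mast cells and basophils were mostly absent, and those of fibroblasts, endothelium and epithelium were partly so. Of 14 lymphocyte markers 12 averaged under 0.1 CPM, and Cd3g and Cd8a had 0 counts in all 8 libraries. Of 12 mast cell and basophil markers 11 averaged under 0.1 CPM, and 6 were at 0 in all 8. Fibroblast and endothelial markers summed to 23.2 to 25.7 CPM at day 1 and 25.4 to 27.1 CPM at day 5, most of it Pdgfra, with Col1a2, Lum and Thy1 at 0. Of these 14 markers Pdgfra, Acta2 and Pecam1 averaged 1 CPM or more, and of 7 tested 1 was called higher and 1 lower. Epithelial markers summed to 73.6 to 76.2 CPM and 87.1 to 88.8 CPM, most of it Cdh1 (0.21 ± 0.05), with Sftpa1 and Nkx2-1 at 0. Of 12 listed, 4 averaged 1 CPM or more (Cdh1, Krt19, Scgb1a1 and Ager). Among 5 tested, 3 were called higher and none lower, with 1 to 3 higher over the alternative settings. Krt19, a keratin of that list, rose by 1.73 ± 0.16 (range 1.12 to 1.36 CPM at day 1 and 3.48 to 5.53 CPM at day 5).

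Neutrophil and monocyte markers summed to 561.9 to 632.9 CPM at day 1 and 663.1 to 808.3 CPM at day 5. Of 11 tested, 4 were called higher and 1 lower. The monocyte gene Ly6c2 had 13.7, 12.9, 11.7 and 13.2 CPM at day 1 and 22.7, 19.5, 22.8 and 20.0 CPM at day 5, a log2 fold change of 0.72 ± 0.07, Ccr2 rose by 1.36 ± 0.19 (range 0.460 to 0.645 CPM at day 1 and 1.26 to 1.55 CPM at day 5), and Mpo, the granule peroxidase, by 1.28 ± 0.15 (day 1 range 1.23 to 1.60 CPM). Cxcr2, a neutrophil chemokine receptor, fell by 0.32 ± 0.05. Several of these genes are also expressed by macrophages, and their part in the immune gene groups was not tested.

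Of the genes with the largest increases that belong to none of the lists, Cd244a, a receptor of the SLAM family on immune cells, had 3.37, 3.73, 3.68 and 3.37 CPM at day 1 and 39.9, 37.8, 55.5 and 67.6 CPM at day 5. Its log2 fold change was 3.83 ± 0.21 (adjusted p = 2.12e-06). Emilin2, an extracellular matrix glycoprotein, had 6.74, 6.92, 7.29 and 6.70 CPM and 41.5, 40.7, 40.3 and 42.3 CPM, with libraries of each day so close together that the log2 fold change of 2.58 ± 0.06 had an SE under that of any other of the 15 genes with the largest rise. Sema3g, a secreted semaphorin, rose by 4.37 ± 0.39 (range 0.258 to 0.516 CPM at day 1 and 4.85 to 10.6 CPM at day 5). Prelid2 rose by 3.84 ± 0.31, C3ar1, the receptor for the complement fragment C3a, by 2.71 ± 0.16 and Dixdc1, a Wnt pathway protein, by 2.67 ± 0.19.

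Decreases were smaller. Card14, a scaffold protein upstream of NF-kB, had 5.27, 5.74, 5.88 and 5.40 CPM at day 1 and 1.60, 1.66, 1.55 and 1.36 CPM at day 5, a fall of 1.85 ± 0.11 (adjusted p = 2.46e-09). Ccrl2, a receptor that binds chemerin, fell by 1.44 ± 0.13 (range 5.21 to 6.89 CPM at day 1 and 1.79 to 2.67 CPM at day 5), and Ptafr, the receptor of platelet-activating factor, by 1.08 ± 0.12. Myof, a membrane repair protein, was abundant, at 796, 766, 748 and 815 CPM at day 1 and 421, 445, 369 and 369.8 CPM at day 5. No library overlapped, and the fall was 0.96 ± 0.07 (adjusted p = 9.57e-09). Among the 15 with the largest fall were also Pclo, a scaffold of presynaptic terminals (-1.43 ± 0.17), Ankrd63 (-1.10 ± 0.07), the drug exporter Abcb1b (-1.03 ± 0.12), Tbc1d16 (range 21.1 to 27.5 CPM at day 1 and 9.32 to 16.4 CPM at day 5), Nav2 (-0.99 ± 0.13), the calcium channel subunit Cacna1e (-0.94 ± 0.14), Dock3, an activator of Rac (-0.93 ± 0.11), and Mn1, a transcriptional coregulator (-0.93 ± 0.08).

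The replicates of day 5 split in the same way for most of these genes. Library codes run on between replicates 1 and 2 and between replicates 3 and 4, per the file names, and no label says what the codes stand for. Of the 15 genes with the largest rise, 12 had day 5 replicates 3 and 4 both above replicates 1 and 2, and of the 15 with the largest fall, 12 had them both below. Over all genes tested 25.3% had them both above and 25.7% both below. At day 1 the counts were 1 of 15 and 1 of 15, and 6 of the 15 falling genes had replicates 3 and 4 both above. Over all genes tested, 20.1% had them both above at day 1 and 19.4% both below. The split thus ran along the change with time, with replicates 3 and 4 further from day 1. Day 5 replicates 3 and 4 were both higher for 19 of 34 HIF target genes, 13 of 21 glycolysis genes and 9 of 17 class II genes, and for 4 of 39 interferon-stimulated genes. All 30 genes had the same direction in each pair, which their choice already implies, since only genes whose libraries do not overlap between the days were taken. Prelid2 rose by 3.23 in replicates 1 and 2 and by 4.32 in replicates 3 and 4, and Tbc1d16 had -0.62 and -1.49.

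In cultures exposed to M. abscessus the same days were compared in a fit of all 16 libraries, and the difference between the changes was tested. Over all genes 35.9% had a called difference. Of the 15 genes with the largest rise in uninfected cells, 13 were also called higher with time in exposed cells, where 25.6% of all genes were, and 2 were called lower. For 8 of the 15 the difference was called, each with the larger rise in uninfected cells. The 15 genes were chosen by their rise in the same uninfected libraries, which by itself favours a larger rise there. The shared direction of these differences is therefore a description and no independent result.

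Arg1 rose by 6.78 ± 0.67 in exposed cells (range 0.103 to 0.379 CPM at day 1 and 9.49 to 61.8 CPM at day 5). The difference between uninfected and exposed cells was 1.04 ± 1.07 (adjusted p = 0.483), with wide errors on both sides. For P4ha2 the difference was -1.15 ± 0.73 (adjusted p = 0.238), and for Bnip3 1.15 ± 0.47 (adjusted p = 0.0659). These p-values do not show that the changes were alike, and the difference became a call without exposed day 5 replicate 1 for P4ha2 (-1.44) and without exposed day 5 replicate 2 or uninfected day 5 replicate 1 or 2 for Bnip3 (1.41, 1.31 and 1.31). Adm rose by 2.79 ± 0.25 in exposed cells, and the difference of 1.57 ± 0.35 was called (adjusted p = 0.00181). Ankrd37 differed by 1.65 ± 0.38 (adjusted p = 0.00253), and Sema3g by 2.12 ± 0.54. Egln3 differed by 0.87 ± 0.29 (adjusted p = 0.0274), a call that was lost without exposed day 1 replicate 3, exposed day 5 replicate 3 or 4, uninfected day 1 replicate 4 or uninfected day 5 replicate 3 or 4, with values of 0.77 to 0.86.

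Ciita had 2.58 to 2.98 CPM in exposed cells at day 1 and 7.54 to 12.6 CPM at day 5, so that its day 1 range lay above that of uninfected cells and its day 5 range reached only the lower end of theirs. The difference of the changes was 2.04 ± 0.22 (adjusted p = 1.24e-06). Cd244a went opposite ways, with a log2 fold change of -1.37 ± 0.25 in exposed cells and a difference of 5.19 ± 0.33 (adjusted p = 9.29e-09). Emilin2 did too, with -0.27 ± 0.10 in exposed cells and a difference of 2.84 ± 0.14 (adjusted p = 1.66e-10).

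Of the 15 genes with the largest fall, 10 had a called difference with the lower change in uninfected cells, 1 with the lower change in exposed cells and 4 had none called. Here too the choice by the change in the same uninfected libraries favours a larger fall there. Ccrl2 rose by 3.49 ± 0.33 in exposed cells, to 82.2 to 305 CPM, a difference of -4.94 ± 0.47 (adjusted p = 1.16e-06). Ptafr, Slc7a11 and Myof also rose in exposed cells, with differences of -3.76 ± 0.34, -2.41 ± 0.34 and -1.35 ± 0.17. Epas1 had a log2 fold change of -0.78 ± 0.12 in exposed cells (difference -0.16 ± 0.16; adjusted p = 0.472). Mn1 fell further in exposed cells (-2.34 ± 0.21), with a difference of 1.40 ± 0.28.

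**Figure D5:**
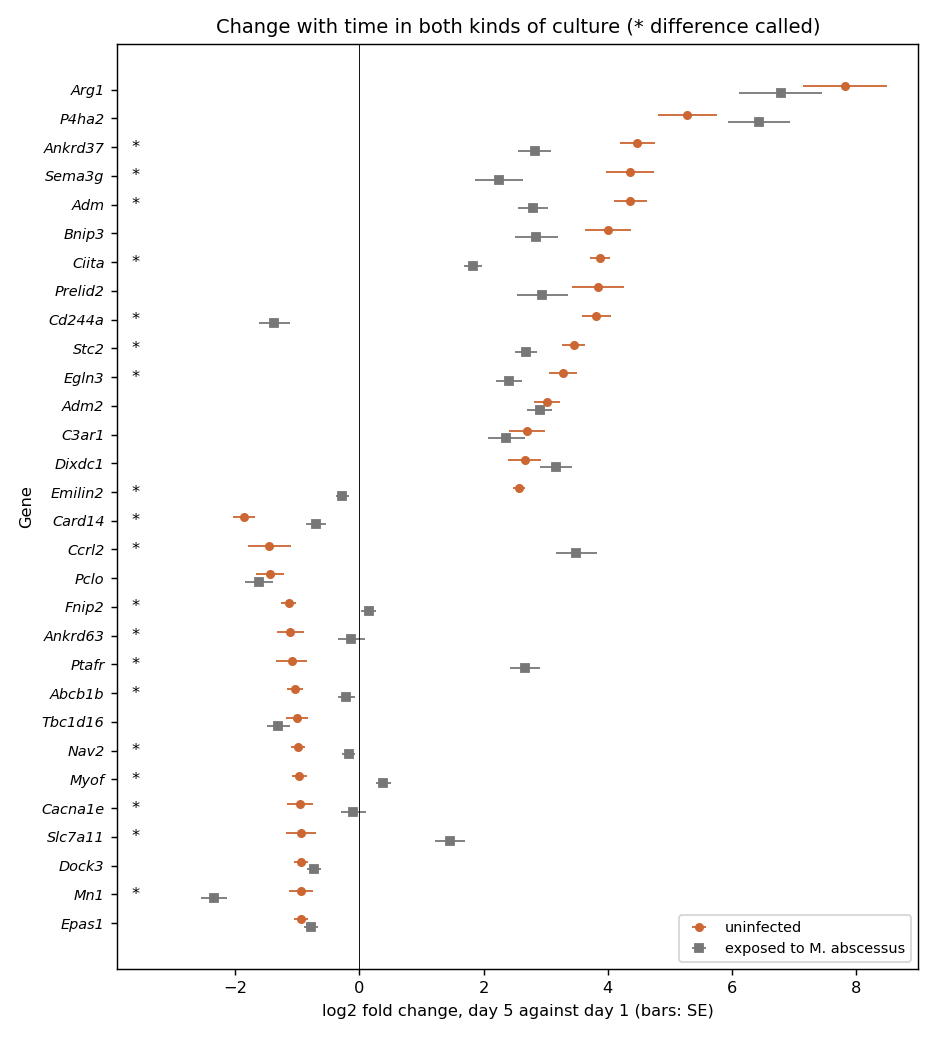
Log2 fold change from day 5 against day 1 with its SE for the 15 genes with the largest rise and the 15 with the largest fall in uninfected cells, orange circles for uninfected and grey squares for exposed cultures, from the fit of all 16 libraries, with a star where the difference was called. Circles and squares lie on the same side of 0 for most of the upper genes, and Cd244a, Emilin2, Ccrl2, Fnip2, Ptafr, Myof and Slc7a11 lie on opposite sides.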

How the data were processed

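Polyadenylated RNA of MPI-2 cells was sequenced, and raw counts for each gene were deposited, made by the authors with STAR on GRCm39, on the reverse strand, per the submitters' processing notes and the file names. The version of STAR and the annotation release are not given in the sources used here. Symbols came from GENCODE M21 for 52083 of 55359 genes, and counts without a symbol were 0.362% of the total. The comparison took the 8 uninfected libraries alone. Genes passed filterByExpr by group (15777), libraries were scaled by TMM, and edgeR 4.0.16 (R 4.3.3) fitted a robust quasi-likelihood model, with two-sided tests, Benjamini-Hochberg adjustment over all genes tested and calls at an adjusted p under 0.05. The difference from exposed cultures was tested in a fit of all 16 libraries (17190 genes). Each SE of a log2 fold change was worked back from its test, as the absolute change divided by the square root of the F statistic. On simulated counts 86.8% of genes changed by 0.5 (log2) and 100% of those changed by 1 were called, with 14 of 15354 unchanged genes called. Only 68, 66 and 66 of 15554 genes were changed, by 0.5, 1 and 2, all averaging over 1 CPM and evenly up and down. In the data 40.7% of genes were called and changes of at least 2-fold were mostly increases, a setting that the simulation does not test.

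Genes named in full are the 15 called genes with the largest rise and the 15 with the largest fall among those whose higher group averages 5 CPM or more, with a proper symbol and libraries that do not overlap, the 4 markers Arg1, Adm, P4ha2 and Ciita, and up to 4 members of each list with the smallest p. Members outside this rule that are named beside a count were chosen after their values were seen. The members and lists were chosen with earlier results of these data known, so counts over lists are descriptions and no set test was run. Alternatives were DESeq2 1.42.0, other scalings and filters, a replicate block, pairs of replicates, leaving out each library and, added after seeing the data, removal of the length trend. Counting error is small at these depths for genes with many counts. It is larger, relative to the level, for genes close to absent at day 1. Arg1 had 12, 34, 12 and 11 counts in day 1 replicates 1 to 4, and P4ha2 had 16, 33, 13 and 10. A few list members are counted but not reported here by name.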

Additional observations from a re-analysis of the deposited data

Results flagged for a closer look

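Among the values named in the report, 1 library stood apart from the other 3 of its day in 12 of 294 groups of 4, by Dixon's criterion for 4 values, and chance gives about 1 in 20. At day 5, replicate 4 was high for Ankrd37 (24.6 CPM against 19.4 CPM for the next), Car12 (2.80 CPM against 1.25 CPM) and Lyz2 (2772 CPM against 2199 CPM), and low for Hsph1 (43.6 CPM) and Lipa (618 CPM). Also at day 5, replicate 3 was high for Ccr2 (1.55 CPM) and Ctsb (1391 CPM) and low for Ifi27l2a (46.2 CPM against 63.7 CPM), and replicate 2 was low for Nr1d1 (17.1 CPM). At day 1, replicate 1 was high for Ccl5 (0.318 CPM), replicate 2 was high for Egln3 (48.4 CPM), and replicate 3 was low for Olr1 (649.8 CPM).

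For 19 of the 30 genes set beside exposed cultures the difference between both changes with time passed its test. The 30 genes were chosen by their change in uninfected cells, which favours larger changes there. The change was more positive in uninfected cells for Cd244a (5.19), Emilin2 (2.84), Sema3g (2.12), Ciita (2.04), Ankrd37 (1.65), Adm (1.57), Mn1 (1.40), Egln3 (0.87) and Stc2 (0.77), and more negative for Ccrl2 (-4.94), Ptafr (-3.76), Slc7a11 (-2.41), Myof (-1.35), Fnip2 (-1.29), Card14 (-1.16), Ankrd63 (-0.98), Cacna1e (-0.85), Abcb1b (-0.83) and Nav2 (-0.82), all on the log2 scale. The calls of Stc2, Egln3 and Cacna1e were lost on leaving out some single libraries.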

How the results depend on the processing

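The count of genes called higher lay between 2574 and 3359 and that of genes called lower between 2479 and 3520 under DESeq2, the other scalings and filters, the replicate block, either pair of replicates alone and removal of the length trend. Leaving out 1 library gave 2761 to 3427 higher and 2610 to 3106 lower. With all 16 libraries in the fit the counts were 1852 and 1532, and Nos2, Erap1, Ier3, Plk2, Ddit3, Plin4, Lyz2, Cxcr2, Cdh1, Itgax, Fabp4 and Mrc1 lost their calls. That fit estimates the spread between replicates from the exposed libraries too, and the genes that pass the filter and the scaling also change. The cause of the lost calls was not tested. Same-numbered libraries did not deviate together (correlations of -0.024, -0.074, -0.059 and -0.046), so the replicate numbers were not taken as pairs. With the replicate block 2882 genes were higher and 2479 lower. The fall of the mitochondrial share, -0.402 percentage points, had an exact permutation p of 0.125 within the replicate block, the smallest that it allows, and was -0.538 in replicates 1 and 2 and -0.267 in replicates 3 and 4. Leaving out 1 library gave -0.443 to -0.362.

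Signs turned only for values that were not called in the comparison of all 8 libraries (or of all 16, for differences). These were Hif1a (-0.0266 in replicates 1 and 2, -0.00048 without day 1 replicate 3, -0.0112 without day 5 replicate 3), Cdkn2a (-0.0245 in replicates 3 and 4), Il6 (-0.164 in replicates 1 and 2), Marco (0.405 in replicates 1 and 2 and -0.269 in replicates 3 and 4, both called), Gata1, a mast cell marker (0.00955 without day 1 replicate 2, 0.00712 without day 5 replicate 2), and the differences from exposed cultures of Adm2 (-0.0299 without exposed day 5 replicate 3) and Pclo (-0.000188 without exposed day 5 replicate 4). Leaving out 1 library gave -0.0893 to 0.00955 for Gata1, -0.0112 to 0.0758 for Hif1a, -0.0299 to 0.366 for the difference of Adm2 and -0.000188 to 0.412 for that of Pclo.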
